A study of Homo sapiens with 16 samples.

Results

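The replication-dependent core histone genes are the members described here: every row of the count table whose symbol begins with HIST1 to HIST4 followed by H2A, H2B, H3 or H4. They are 67 of the 23459 genes in the table, and linker histone H1 genes do not belong to them. By type they are 18 H2A, 20 H2B, 14 H3 and 15 H4 genes, and by cluster 50 HIST1, 13 HIST2 and 4 HIST3 or HIST4 genes. The symbols also bring in 3 pseudogenes (HIST1H2APS1, HIST2H2BA and HIST2H2BC) and the testis-type histones HIST1H2AA, HIST1H2BA and HIST3H3, which are not typical S-phase genes. RNA of the human neuroblastoma lines Be(2)-C and IMR5-75 was sequenced, each after solvent (DMSO), after DAC at 1 µM for 72 h, after EPZ-6438 at 1 µM for 96 h and after both drugs at these doses and times. There were 2 libraries in each of the 8 groups, 16 in all. DAC is the usual short name of decitabine, a nucleoside inhibitor of DNA methyltransferases, and EPZ-6438 inhibits EZH2, the enzyme that writes the repressive H3K27 methylation mark. Both lines are clonal sublines of older neuroblastoma lines with amplified MYCN, so each group shows the response of 1 clone grown in serum. The labels do not tell whether the paired libraries of a group go back to different cultures, and the p-values therefore reflect the spread between libraries, which may be technical.

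Core histones are the spools of the nucleosome: H2A pairs with H2B, H3 pairs with H4, and new ones are needed whenever DNA is copied. Their replication-dependent genes are clustered, have no introns and are transcribed mostly in S phase, under NPAT and cyclin E with CDK2. Their mRNAs end in a stem-loop bound by SLBP instead of a poly(A) tail, and are degraded when replication stops. The libraries were made from total RNA depleted of ribosomal RNA, without poly(A) selection, so these tail-less mRNAs could be captured. In RNA from a mixed culture, fewer cells in S phase and less histone mRNA per cell cannot be told apart.

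Library totals ran from 9539557 to 14032155 counts, and 3 counts, the limit set by a count of 0, correspond to 0.206 to 0.314 CPM (counts scaled to library size). Of 12 noradrenergic neuroblastoma markers 11 were above 1 CPM in every library. The exception, TH, was at 0 to 2.6 CPM in IMR5-75 and 53.2 to 89.2 CPM in Be(2)-C. DBH was at only 1.18 to 2.68 CPM in the IMR5-75 DMSO and EPZ-6438 libraries. Summed haematopoietic markers (7 genes) reached at most 3.52 CPM, epithelial markers (7) 32.7 CPM and Schwann or glial markers (8) 33.2 CPM. Some libraries stood apart in the core histone genes. In IMR5-75 the DMSO library 2 was above library 1 by a median of 0.58 (log2) over 36 well-expressed members, 29 of which differed by over 0.4, while the other genes had a median of −0.01. The IMR5-75 libraries under both drugs differed likewise (median 0.52, 28 of 40 members over 0.4), and in IMR5-75 DAC library 2 was below library 1 (median −0.36). The Be(2)-C EPZ-6438 library 2 was lower by over 0.4 for 16 of 52 members, down to −1.42 for HIST1H2BM and −1.38 for HIST1H3I, with 12.4% of other genes differing that much in either direction.

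**Figure D1:**
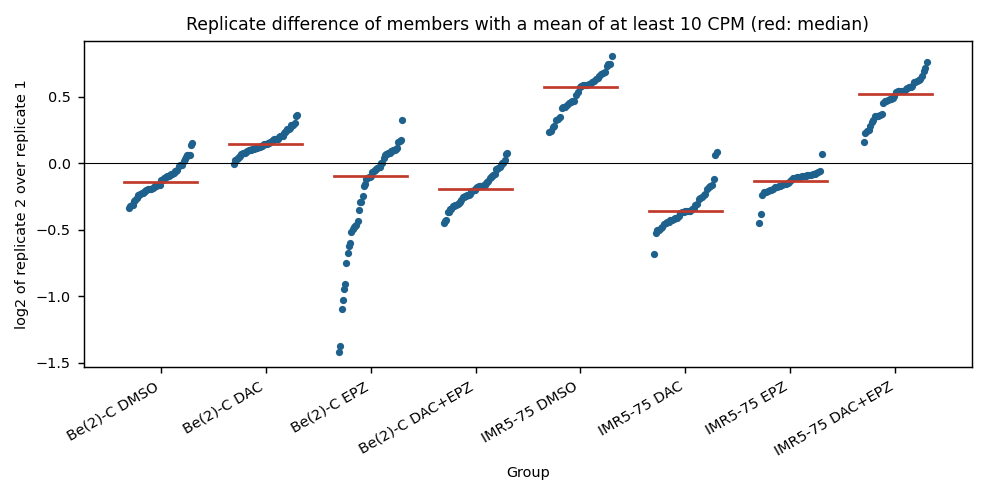
Log2 of replicate 2 over replicate 1 for each core histone gene with a mean of at least 10 CPM, in the 8 groups (points, 1 per gene). The medians were 0.58 in IMR5-75 DMSO, 0.52 in IMR5-75 under both drugs and −0.36 in IMR5-75 DAC, and 16 of 52 members lay under −0.4 in Be(2)-C EPZ-6438.

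The members share short promoter elements. In the 250 bases upstream of the gene start (RefSeq, GRCh38.p14; 59 of 67 members matched), searched on both strands, the letters TATAAA stood in 67.8% of the members against 10.7% of all 35116 promoters in the table. CCAAT stood in 83.1% against 32.0%, in every H2A, H2B and H3 promoter but in only 23.1% of H4 promoters. The octamer ATTTGCAT, the letters bound by POU2F1 (OCT1), stood in 68.8% of H2A and 77.8% of H2B promoters and in none of the 12 H3 or 13 H4 promoters, against 1.63% of all promoters. These are matches of letters and not measured sites, and no match says only that the letters are not in this window. The promoters of 6 members are printed because DAC, which acts on cytosine methylation, gave them contrasting changes, and their capitals mark CpG dinucleotides. HIST1H2BA, at chr6:25726527-25726776 on the + strand, holds 12 CpG and HIST1H4F, at chr6:26240143-26240392 on the + strand, holds 7. Both were near 0 in DMSO in the 2 lines and had counts after DAC. HIST3H3 at chr1:228425361-228425610 on the − strand, with 11 CpG, is the testis H3 with the same pattern at a lower level. HIST1H3G at chr6:26271414-26271663 on the − strand (9 CpG) and HIST1H2BH at chr6:26251364-26251613 on the + strand (4 CpG) were high in Be(2)-C and near 0 in IMR5-75 DMSO. HIST1H2BL at chr6:27807930-27808179 on the − strand, with 11 CpG, was high in both lines and fell with DAC.
HIST1H2BA: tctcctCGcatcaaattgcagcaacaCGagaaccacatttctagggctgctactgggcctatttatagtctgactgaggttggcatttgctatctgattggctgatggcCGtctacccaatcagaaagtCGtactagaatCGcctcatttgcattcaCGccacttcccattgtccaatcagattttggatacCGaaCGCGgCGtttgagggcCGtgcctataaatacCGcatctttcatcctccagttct
HIST1H4F: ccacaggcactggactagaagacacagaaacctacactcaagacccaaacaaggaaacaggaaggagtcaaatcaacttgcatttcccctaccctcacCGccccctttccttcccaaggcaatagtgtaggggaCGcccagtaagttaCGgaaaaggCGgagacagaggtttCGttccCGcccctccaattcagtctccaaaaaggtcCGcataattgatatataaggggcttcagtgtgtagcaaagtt
HIST3H3: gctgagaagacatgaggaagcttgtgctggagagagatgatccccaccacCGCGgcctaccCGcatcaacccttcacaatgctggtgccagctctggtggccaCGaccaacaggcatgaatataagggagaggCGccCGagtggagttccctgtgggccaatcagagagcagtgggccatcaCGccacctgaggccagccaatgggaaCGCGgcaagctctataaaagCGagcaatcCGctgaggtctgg
HIST1H3G: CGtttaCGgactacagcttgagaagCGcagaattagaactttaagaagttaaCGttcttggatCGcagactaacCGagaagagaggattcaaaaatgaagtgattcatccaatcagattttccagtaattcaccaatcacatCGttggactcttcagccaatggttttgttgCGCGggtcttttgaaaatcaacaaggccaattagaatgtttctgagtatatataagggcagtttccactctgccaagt
HIST1H2BH: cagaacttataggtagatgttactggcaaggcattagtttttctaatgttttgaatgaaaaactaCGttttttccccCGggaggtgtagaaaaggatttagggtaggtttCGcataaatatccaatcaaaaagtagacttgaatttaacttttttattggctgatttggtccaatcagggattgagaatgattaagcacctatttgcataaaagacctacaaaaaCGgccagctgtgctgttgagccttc
HIST1H2BL: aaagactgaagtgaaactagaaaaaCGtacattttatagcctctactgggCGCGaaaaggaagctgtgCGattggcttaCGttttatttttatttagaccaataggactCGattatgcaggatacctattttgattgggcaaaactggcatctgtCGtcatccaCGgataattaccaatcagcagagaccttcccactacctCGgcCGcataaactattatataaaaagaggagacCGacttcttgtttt
The median number of CpG in these windows was 9 over the members matched and 11 over all promoters. It was 11 for the 5 members near 0 in both untreated lines, 5 for 7 members near 0 in IMR5-75 only, and 8 for the 41 members above 3 counts in IMR5-75 DMSO. No methylation was measured in these libraries.

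Of the 67 members 59 had enough counts to be tested. The other 8 were 7 genes at 0 counts in every library (HIST1H2APS1, HIST2H2AA3, HIST2H2AA4, HIST2H3A, HIST2H3C, HIST2H4A and HIST2H4B) and HIST1H4G, with at most 2 counts in a library. The HIST2 genes among the 7 are near-identical twins: 95.1% to 100% of the 50-base words of their transcripts (GENCODE v29) also lie in another gene, so a 50-base read cannot be assigned to one of them, and their 0 says nothing about their expression. Sharing also touches members with counts, among them HIST1H2AM (86.3% of words, with HIST1H3J), HIST1H4J (81.2%), HIST1H2BK (74.1%) and HIST1H2AI (62.3%). All 50-base words of HIST1H2AK lie in HIST1H2BN, all of HIST1H4K lie in another gene, and 63.5% of those of HIST2H2BF and 80.4% of those of HIST2H3D are shared, as are 83.7% of those of HIST1H2AJ with HIST1H2AI, so values of these genes are uncertain. How reads with several matches, and the strand, were counted is not given in the sources used here.

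In the untreated cells the core histone genes together took 1.57% ± 0.10 (SD, n = 2) of Be(2)-C counts and 1.43% ± 0.36 of IMR5-75 counts. The lines drew on different genes. HIST1 genes made up 87.2% of the core histone counts in Be(2)-C DMSO and 63.2% in IMR5-75 DMSO, and HIST2 genes 10.3% and 35.2%. The HIST2 share lay between 9.25% and 10.53% in all 8 Be(2)-C libraries and between 34.4% and 36.0% in all 8 IMR5-75 libraries, without overlap between lines and with a narrow range over the treatments. In the test between untreated lines 8 of 59 members were higher in IMR5-75, where 32% of all 15967 genes tested were higher, and 30 were lower, where 31.2% of all genes were lower. The median difference was −0.86 (log2, IMR5-75 over Be(2)-C). Of the 30, 9 had 3 or fewer counts over the IMR5-75 DMSO libraries, a group set apart on these same counts. Among the 46 members above 3 counts 8 were higher and 21 lower, with a median of −0.31. Tests are edgeR's quasi-likelihood test with Benjamini-Hochberg adjustment over all genes tested, and a gene is called at an adjusted p under 0.05.

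Of the 7 HIST2 members tested 5 were higher in IMR5-75. The H2B gene HIST2H2BF stood at 346 and 295 CPM in the Be(2)-C DMSO libraries and at 1420 and 1956 CPM in the IMR5-75 DMSO libraries, a log2 difference of 2.40 (SE 0.22, adjusted p = 4.26e-09). The H3 gene HIST2H3D stood at 302 and 291 CPM against 755 and 1267 CPM, a difference of 1.77 (SE 0.21, adjusted p = 1.89e-07). HIST2H2AC, the H2A gene with the highest mean CPM over the 16 libraries, stood at 397 and 416 CPM against 785 and 1183 CPM (1.27, adjusted p = 2.62e-06). In all 3 genes the libraries of the lines did not overlap. The HIST2 genes that were lower are the pseudogenes HIST2H2BA and HIST2H2BC.

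**Figure D2:**
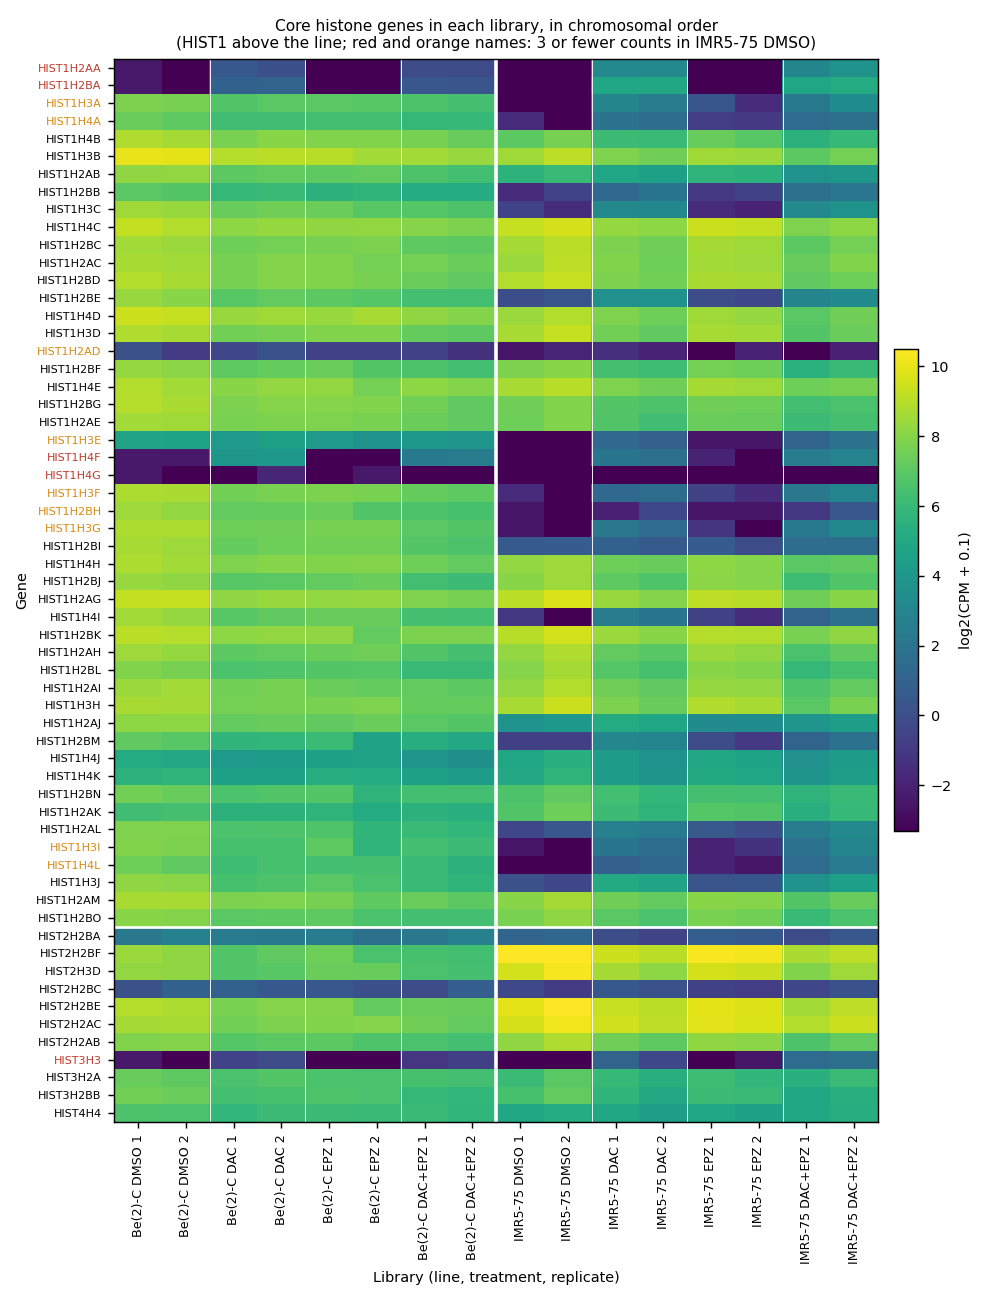
Log2(CPM + 0.1) of the 60 core histone genes with counts (rows, in chromosomal order) in the 16 libraries (columns). Runs of HIST1 rows that are bright in the 8 Be(2)-C columns are dark in the 2 IMR5-75 DMSO columns and less dark after DAC or both drugs.

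Many HIST1 genes were all but undetected in untreated IMR5-75. Over the 2 DMSO libraries 21 members had 3 or fewer counts. Besides the 7 at 0 everywhere, 5 of them (HIST1H2AA, HIST1H2BA, HIST1H4F, HIST1H4G and HIST3H3) were also low in Be(2)-C DMSO, with 1 or 2 counts over its libraries. The other 9 (HIST1H2AD, HIST1H2BH, HIST1H3A, HIST1H3E, HIST1H3F, HIST1H3G, HIST1H3I, HIST1H4A and HIST1H4L) had counts in Be(2)-C, from 16 over its 2 DMSO libraries for HIST1H2AD to 9666 for HIST1H3F. As the threshold was read in IMR5-75 DMSO, the difference between untreated lines in these genes is a description. The 3-count limit lies in a continuum: HIST1H2AD, HIST1H3F and HIST1H4A had exactly 3 counts, and just above it HIST1H4I had 5, HIST1H2BB 10, HIST1H3C 11 and HIST1H2BM 13. By type, the low members among those tested were 2 of 15 H2A, 2 of 20 H2B, 6 of 12 H3 and 3 of 12 H4 genes.

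Genes just above the limit belonged to the same range. HIST1H3J, an H3 gene, had 3214 and 2973 counts in Be(2)-C DMSO and 13 and 8 in IMR5-75 DMSO, a log2 difference of −8.40. HIST1H4I, an H4 gene, had 4208 and 3527 counts against 5 and 0 (−10.74), and HIST1H3C had 4013 and 3641 against 8 and 3 (−9.63). HIST1H2BE, HIST1H2BB, HIST1H2BI, HIST1H2BM and HIST1H2AL differed by −7.90 to −8.22, HIST1H2AJ by −4.26 and HIST1H2AB by −2.37. These differences all passed the test. Because the genes were picked for low counts in IMR5-75 DMSO, which enters the test, the differences are a description too.

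Many of the low HIST1 genes are neighbours on chromosome 6, a description without a test. In GENCODE order, the first 5 HIST1 members (HIST1H2AA, HIST1H2BA, HIST1H2APS1, HIST1H3A and HIST1H4A) had at most 3 counts each in IMR5-75 DMSO, and the next, HIST1H4B, had 4167. Members 23 to 29 (HIST1H3E, HIST1H4F, HIST1H4G, HIST1H3F, HIST1H2BH, HIST1H3G and HIST1H2BI) had at most 37, between HIST1H2AE with 5249 and HIST1H4H with 8430. Members 45 to 48 (HIST1H2AL, HIST1H3I, HIST1H4L and HIST1H3J) had at most 24, between HIST1H2AK with 3491 and HIST1H2AM with 8281. Other low genes stood alone between abundant ones: HIST1H2AD (3 counts, between 13178 and 6105), HIST1H2BE (25, between 14181 and 10420) and HIST1H4I (5, between 17554 and 15887). HIST3H3 lies on chromosome 1. Head-to-head neighbours are here consecutive members on the − and then the + strand, at any distance. Both were low for HIST1H2AA and HIST1H2BA (0 and 0 counts), HIST1H2BB and HIST1H3C (10 and 11), HIST1H3F and HIST1H2BH (3 and 1) and HIST1H3G and HIST1H2BI (1 and 37). HIST1H2AD and HIST1H2BF had 3 and 6105 counts (16 and 6530 in Be(2)-C), and HIST1H2AJ and HIST1H2BM 379 and 13. HIST1H2AD and HIST1H2AJ share most of their 50-base words with other genes. HIST1H2AK (3491 counts) comes before HIST1H2AL (24) in this order. All words of HIST1H2AK lie in HIST1H2BN (2987 counts), so HIST1H2AK and HIST1H2AL are not read as a head-to-head pair. Shared 50-base words did not touch the other members at 3 or fewer counts (0% for each member with 3 or fewer counts and counts in some library, other than HIST1H2AD, nearly all of whose words are shared).

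In Be(2)-C most core histone genes fell with either drug. The summed level fell to 0.499 of DMSO with DAC, 0.498 with EPZ-6438 and 0.359 with both (ratio of mean CPM, n = 2 libraries a group). With DAC 49 of 59 members fell, where 2.97% of all genes tested fell, and 3 rose, where 3.73% of all genes rose. The members' median log2 change was −0.97, against 0.02 over all genes. Without DAC library 1 the number that fell dropped from 49 to 32, and without DMSO library 1 to 35. With EPZ-6438 49 fell (4.85% of all genes) and none rose by edgeR (5.35% of all genes did), with 0 higher at an unadjusted p under 0.05 and 0 by DESeq2. The median was again −0.97. Fewer fell without any 1 library, and fewest without DMSO library 1 rather than the EPZ-6438 library 2 that stood apart. With both drugs 52 fell (10.4% of all genes) and 3 rose (13.2% of all genes), with a median of −1.47. The 3 that rose, with DAC and with both drugs, were HIST1H4F, HIST1H2BA and HIST1H2AA. They were near 0 in DMSO and are given as values only. These 3 comparisons share the same DMSO libraries, as do those in IMR5-75.

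All 4 types took part in Be(2)-C. With DAC 12 of 15 H2A, 16 of 20 H2B, 10 of 12 H3 and 11 of 12 H4 genes fell, although without DAC library 1 only 7 H2A and 6 H4 genes passed, and without DMSO library 1 only 5 H4 genes. With EPZ-6438 12 H2A, 17 H2B, 11 H3 and 9 H4 genes fell (5 H4 without DMSO library 1), and with both drugs 13, 17, 11 and 11. By cluster 42 of 48 HIST1, 5 of 7 HIST2 and 2 of 4 HIST3 or HIST4 genes fell with DAC. HIST1H3J had 291 and 273 CPM in DMSO, 90.5 and 98.4 with DAC, 126 and 92.9 with EPZ-6438 and 66.4 and 52.9 with both. Its log2 changes were −1.58 (SE 0.18, adjusted p = 6.97e-06), −1.37 (SE 0.18, adjusted p = 4.48e-05) and −2.24 (SE 0.18, adjusted p = 2.81e-08), and no treated library overlapped DMSO. HIST1H3B, the H3 gene with the highest mean CPM over the 16 libraries (not per length), had 1039 and 973 CPM in DMSO, 495 and 536 with DAC, 524 and 380 with EPZ-6438 and 387 and 328 with both (−0.96, −1.15 and −1.49, all passing). HIST1H4C, the H4 gene with the highest mean CPM over the 16 libraries although not in Be(2)-C alone, had 590 and 474 CPM in DMSO and fell by 0.80, 0.82 and 1.17 on the log2 scale.

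Among the other strongest falls with DAC in Be(2)-C were HIST1H4I (−1.45) and HIST2H3D (−1.40). EPZ-6438 gave its strongest falls in HIST1H2AL (−1.56, SE 0.21, adjusted p = 5.93e-05) and HIST1H2BM, which are among the genes where EPZ-6438 library 2 lay below library 1. HIST1H2BM had 746 and 267 counts in those libraries against 1554 and 1311 in DMSO. Both drugs gave −2.06 for HIST1H2BJ and for HIST1H4I. HIST4H4, an H4 gene outside the large clusters, changed less: 101 and 94.97 CPM in DMSO, 57.4 and 71.0 with DAC, 70.2 and 65.1 with EPZ-6438 and 62.8 and 54.7 with both (−0.61, −0.53 and −0.74, all passing, the EPZ-6438 call being lost without any 1 library). The 7 tested members that neither rose nor fell with DAC in Be(2)-C were HIST1H2BN (−0.75, adjusted p = 0.0528), HIST3H2A (−0.49), HIST1H3E (−0.37), HIST2H2BA (−0.19), HIST2H2BC (0.18), HIST1H2AD (0.18) and HIST3H3 (3.66, adjusted p = 0.0562).

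**Figure D3:**
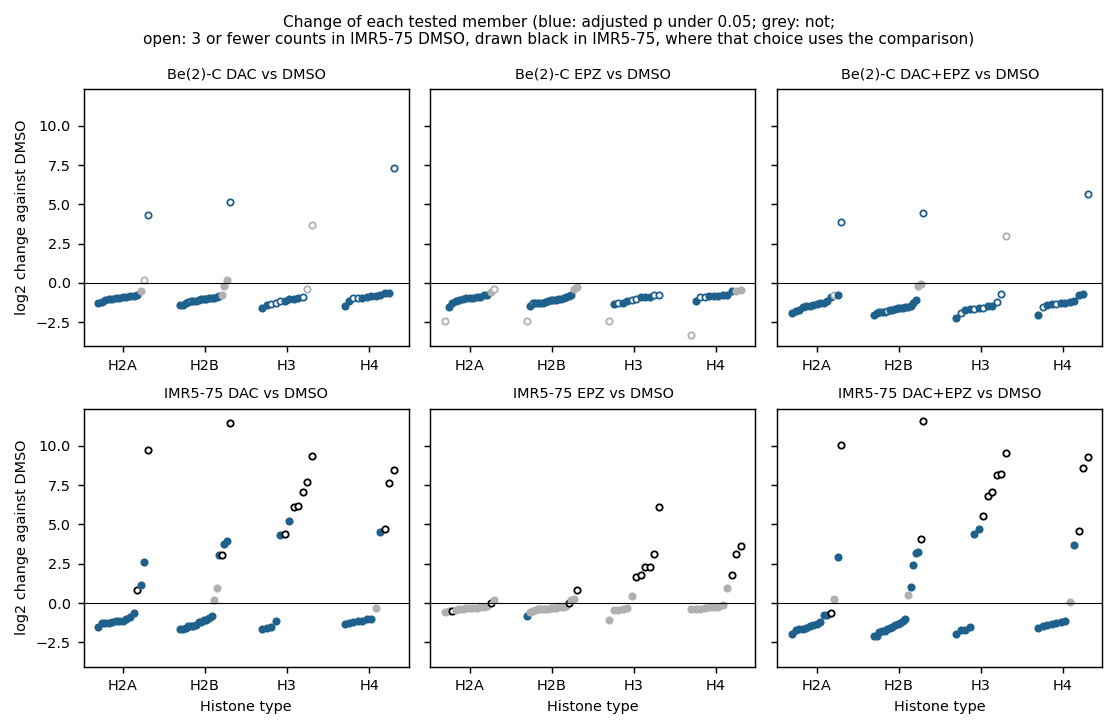
Log2 change against DMSO of each tested core histone gene (points) by histone type, for DAC, EPZ-6438 and both drugs in each line, with members at 3 or fewer counts in IMR5-75 DMSO as open black points in the IMR5-75 panels. In Be(2)-C most points lie below 0 in all 3 comparisons, and in IMR5-75 under DAC or both drugs points lie on both sides, with 35 members lower in each.

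In IMR5-75 DAC split the members in 2 directions. The summed level fell to 0.439 of DMSO. Of 59 members 35 fell, where 13.8% of all genes fell, and 19 rose, where 19.9% of all genes rose. Leaving out 1 library moved these to 32 to 36 and 19 or 20. Of the 46 members above 3 counts in DMSO 35 fell and 8 rose. Those that fell were mostly the abundant genes, and the 8 that rose had low levels in DMSO. The other 11 that rose had 3 or fewer counts in DMSO, so their rise is a description. Among the members above 3 counts, the median changes were −1.16 in H2A, −1.14 in H2B, −1.35 in H3 and −1.12 in H4. Of the 7 HIST2 members 6 fell, with a median of −1.26, and the pseudogene HIST2H2BC did not pass (0.95, adjusted p = 0.162).

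The strongest falls were in HIST1H3D, HIST1H2BL and the pseudogene HIST2H2BA. HIST1H3D had 420 and 629 CPM in DMSO, 185 and 141 with DAC, 409 and 379 with EPZ-6438 and 110 and 160.0 with both. Its log2 changes were −1.68 with DAC (SE 0.18, adjusted p = 2.62e-07) and −1.96 with both. All 50-base words of HIST1H3D are shared with an overlapping transcript, so its reads may belong to that one. HIST1H2BL, whose promoter is printed above, had 252 and 393 CPM in DMSO, 115 and 89.4 with DAC, 259 and 235 with EPZ-6438 and 58.0 and 90.7 with both (−1.66 with DAC, −2.12 with both). HIST2H2BF fell from 1420 and 1956 CPM to 686 and 545 with DAC (−1.46) and to 428 and 554 with both (−1.78). HIST2H2AC fell less, to 738 and 554 CPM with DAC (−0.61, SE 0.18, adjusted p = 0.0122), and lost the call without DMSO library 2 (adjusted p = 0.276) or DAC library 2 (0.158). HIST4H4, at 29.5 and 37.5 CPM in DMSO and 31.1 and 21.7 with DAC, did not pass (−0.34, adjusted p = 0.143; 95% interval −0.74 to 0.06).

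The 8 members above 3 counts that rose with DAC in IMR5-75 were low HIST1 genes. HIST1H3J went from 13 and 8 counts to 486 and 342, a log2 change of 5.20 (SE 0.31, adjusted p = 6.70e-11). HIST1H4I went from 5 and 0 to 79 and 51 (4.54), HIST1H3C from 8 and 3 to 129 and 110 (4.33) and HIST1H2BM from 7 and 6 to 118 and 94 (3.92). HIST1H2BE, HIST1H2BB and HIST1H2AL rose by 3.73, 3.03 and 2.60. HIST1H2AJ, which started higher, went from 185 and 194 to 509 and 372 counts (1.12, SE 0.16, adjusted p = 1.23e-05), and shares most of its words with HIST1H2AI. In all 8 genes both DAC libraries were above both DMSO libraries. HIST1H2BI, at 19 and 18 counts in DMSO and 26 and 18 with DAC, did not pass (0.16, 95% interval −0.55 to 0.88).

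**Figure D4:**
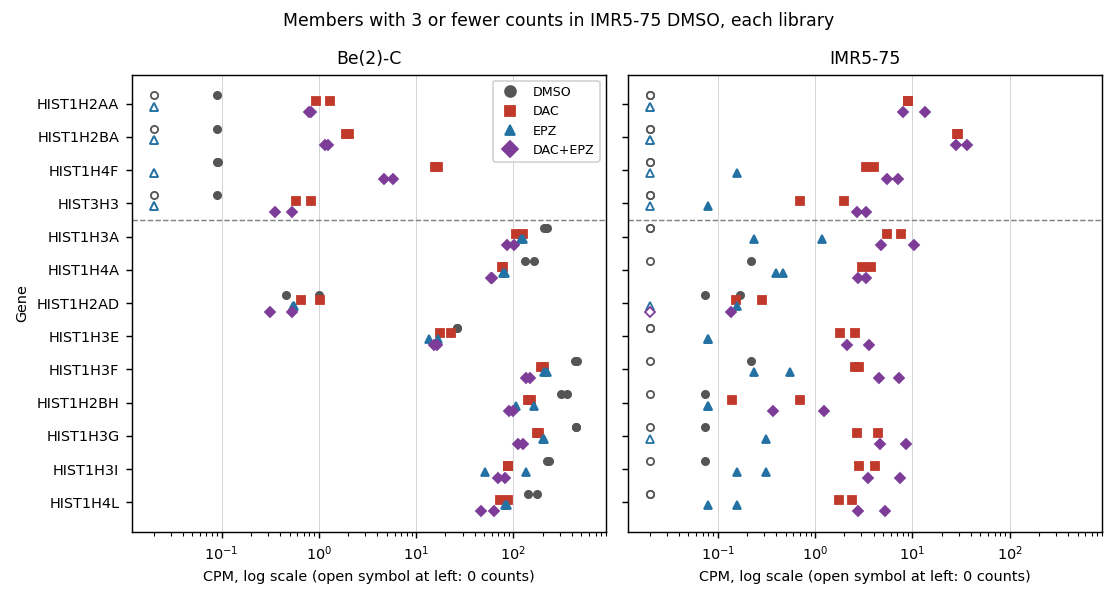
CPM in each of the 16 libraries (points) of the 13 members that had 3 or fewer counts over the IMR5-75 DMSO libraries and were tested, on a log axis. In IMR5-75 the DAC and both-drug libraries lie above the DMSO libraries for 12 of the 13, and HIST1H2AD does not separate.

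Among members near 0 in both untreated lines, the testis-type H2B gene HIST1H2BA was at 1 and 0 counts in Be(2)-C DMSO and 23 and 22 with DAC, and at 0 in both IMR5-75 DMSO libraries and 403 and 383 with DAC. Its IMR5-75 level was at least 247-fold higher with DAC than the limit of 3 counts over the 2 DMSO libraries allows, and at least 274-fold higher with both drugs (383 and 528 counts). Its head-to-head neighbour HIST1H2AA, the testis-type H2A, had 0 counts in IMR5-75 DMSO, 127 and 115 with DAC (at least 76.2-fold higher) and 110 and 199 with both (at least 93.1-fold). The counts of HIST1H2AA in Be(2)-C were 1 and 0 in DMSO and 16 and 10 with DAC. HIST1H4F, an H4 gene, was the member with the largest change in Be(2)-C, from 1 and 1 counts to 191 and 180 with DAC, a 177-fold ratio with an exact 95% interval of 48.7 to 1469. In IMR5-75 HIST1H4F had 0 counts in DMSO and 57 and 43 with DAC (at least 31.5-fold higher). HIST3H3, the testis H3, had 1 and 0 counts in Be(2)-C DMSO and 7 and 9 with DAC, and in IMR5-75 0 in DMSO and 28 and 9 with DAC (at least 11.7-fold higher). Intervals and limits cover counting error only, and each limit drops to between 0.467 and 0.533 of itself if 1 library of the group at 0 is left out. As these genes were set apart by their low DMSO counts, the ratios and limits are a description.

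With EPZ-6438 alone these genes were at or near 0: HIST1H2AA and HIST1H2BA had 0 counts in all 4 EPZ-6438 libraries, HIST1H4F had 2 counts in 1 of the 4 and HIST3H3 had 1 count in 1. In Be(2)-C the EPZ-6438 added to DAC went with less HIST1H4F, 52 and 55 counts against 191 and 180, a difference of −1.64 on the log2 scale (adjusted p = 3.18e-04). The 3 members that rose with DAC in Be(2)-C were HIST1H4F, HIST1H2BA and HIST1H2AA, at adjusted p of 4.70e-09, 1.77e-04 and 0.00857. These genes and HIST3H3 pass the count filter only through groups that had DAC, in 1 or both lines, so their calls are given as values only. HIST3H3 did not pass the test with DAC in Be(2)-C. The HIST1H2AA call was lost without DMSO library 2 (adjusted p = 0.098) or DAC library 1 (0.077). The order of the genes differed between lines. The DAC level of HIST1H4F in IMR5-75 was 23.0% of its level in Be(2)-C with DAC, while those of HIST1H2BA and HIST1H2AA were 1488% and 793%.

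Of the 9 members near 0 only in IMR5-75, 8 had more counts there in both DAC libraries than in both DMSO libraries, at levels below those of Be(2)-C. HIST1H3A had 0 counts in both DMSO libraries, 109 and 70 with DAC (at least 56.4-fold higher), 15 and 3 with EPZ-6438 and 65 and 151 with both. HIST1H3G, whose promoter is printed above, had 1 and 0, then 63 and 35 with DAC (92.6-fold, exact 95% interval 16.2 to 3693), 4 and 0 with EPZ-6438 and 64 and 125 with both. Without DMSO library 2 the HIST1H3G ratio was 49.3, and without DMSO library 1 only a limit of at least 14.4-fold remained. HIST1H3I had 1 and 0 against 58 and 36, HIST1H4A 3 and 0 against 53 and 39, HIST1H3F 3 and 0 against 36 and 36, HIST1H3E 0 and 0 against 36 and 23, and HIST1H4L 0 and 0 against 25 and 31. HIST1H2BH had 1 and 0 counts against 2 and 9 (10.4-fold, interval 1.51 to 447). Its ratio was 5.54 without DMSO library 2, 17.9 without DAC library 1 and at least 1.62 without DMSO library 1. HIST1H2AD had 1 and 2 against 4 and 2 (1.89-fold, 0.40 to 11.7, and 3.02-fold without DMSO library 2), an interval that includes no change. Neither HIST1H2BH nor HIST1H2AD was called by edgeR with DAC. The 9 members were picked for low IMR5-75 DMSO counts, the denominator here, so these ratios and intervals are a description. Set against untreated Be(2)-C, the IMR5-75 DAC levels were 0.123% for HIST1H2BH, 0.606% for HIST1H3F, 0.826% for HIST1H3G, 3.12% for HIST1H3A, 8.33% for HIST1H3E and 30.5% for HIST1H2AD. Those of HIST1H3J and HIST1H2AJ, which were above the 3-count limit, were 10.9% and 11.4%.

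Summed over the 21 members at 3 or fewer counts, the IMR5-75 level was 0.45 CPM in DMSO, 67.8 ± 4.29 CPM with DAC, 2.40 ± 1.06 with EPZ-6438 and 88.9 ± 26.8 with both (SD, n = 2). The same sum in Be(2)-C was 1985 CPM in DMSO and 928 with DAC, but different genes filled it. Of the 67.8 CPM, 43.2 came from members near 0 in both untreated lines, which summed to 0.27 CPM in Be(2)-C DMSO. The 9 members near 0 only in IMR5-75 summed to 24.6 CPM there with DAC, against 1985 CPM in Be(2)-C DMSO. The 21 members together gave 1.04% of the core histone counts of IMR5-75 with DAC. Of the 9 members near 0 only in IMR5-75, 7 fell with DAC in Be(2)-C, where 2.97% of all genes fell, and HIST1H2AD and HIST1H3E did not pass. This contrast does not involve IMR5-75 DMSO. Of the 46 members above 3 counts 42 fell in it too, so the fall was not particular to these 9.

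With EPZ-6438 alone few core histone genes passed the test in IMR5-75. The summed level was 12487 and 11330 CPM with EPZ-6438 and 12221 and 17801 CPM in DMSO, a ratio of means of 0.793 that rests on DMSO library 2, since the groups overlap at library 1. By edgeR 1 of 59 members fell, where 0.344% of all genes fell, and none rose, where 1.63% did. At an unadjusted p under 0.05 13 were lower and 2 higher, and DESeq2 called 1 lower and 1 higher. The member was HIST3H2BB, at 87.4 and 147 CPM in DMSO and 72.3 and 62.7 with EPZ-6438 (−0.80, SE 0.21, adjusted p = 0.0482), and it lost its call without DMSO library 2 (adjusted p = 0.655) and without either EPZ-6438 library (0.178 and 0.283). Without DMSO library 1 3 members fell. The median change was −0.29, and without DMSO library 2 the medians of the H4 and HIST1 members turned positive (0.049 and 0.023).

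With both drugs 35 members fell in IMR5-75 (20.4% of all genes did) and 20 rose (25.7% of all genes). Of the 20, 12 had 3 or fewer counts in DMSO, so their rise is a description, and among the 46 members above 3 counts 35 fell and 8 rose. The summed level was 0.367 of DMSO. The strongest falls were HIST1H2BF, from 217 and 265 CPM to 46.1 and 64.1 (−2.13), HIST1H2BL (−2.12) and HIST1H2AB, from 48.9 and 66.0 CPM to 12.9 and 15.9 (−1.99). Against DAC alone 3 members were lower (0.72% of all genes), HIST1H2AJ (−0.87), HIST1H2AB (−0.84) and HIST1H3J (−0.81), and 1 was higher (1.22%), HIST1H3F (1.16). Leaving out 1 library gave between 0 and 3 calls in place of these 4, not necessarily in the same genes. HIST1H3J had 486 and 342 counts with DAC and 176 and 318 with both. Against EPZ-6438 alone 32 were lower (16.9% of all genes) and 21 higher (20.7%).

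Adding EPZ-6438 to DAC lowered 15 members in Be(2)-C (2.02% of all genes) and raised none by edgeR (3.42% of all genes rose), with 0 higher at an unadjusted p under 0.05 and 0 by DESeq2. Without 1 library the 15 became 1 to 10. Adding DAC to EPZ-6438 lowered 18 members (1.37%) and raised 3 (2.84%), which together became 5 to 17 without 1 library. The median changes were −0.51 and −0.45. The 3 that rose when DAC was added were HIST1H4F, HIST1H2BA and HIST1H2AA. Each had 0 counts in both Be(2)-C EPZ-6438 libraries, so their calls are given as values only. A test of whether the combined change departed from the sum of the single changes (on the log2 scale) called no member by edgeR in Be(2)-C, where the term was higher in 0.0125% and lower in 0.244% of all genes. There 26 members were higher and 0 lower at an unadjusted p under 0.05, DESeq2 called 0, and the median term was 0.50, so the combined fall was smaller than the sum for most members without passing the adjusted threshold. In IMR5-75 it also called no member by edgeR (0.0125% of all genes higher and 0.0125% lower), with 3 higher and 4 lower at an unadjusted p under 0.05, 0 by DESeq2 and a median of 0.01.

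The change with DAC differed between the lines for 16 members, all higher in IMR5-75, where 5.13% of all genes were higher, and none was lower by edgeR, where 1.06% of all genes were (5 at an unadjusted p under 0.05, 0 by DESeq2). Of the 16, 7 had 3 or fewer counts in IMR5-75 DMSO, which enters this contrast, so their direction is a description. The other 9 were above the limit: HIST1H3J (6.77), HIST1H4I (5.999), HIST1H3C (5.37), HIST1H2BM (5.16), HIST1H2BE (4.88), HIST1H2BB (3.95), HIST1H2AL (3.83), HIST1H2AJ (2.06) and HIST1H2BI (1.41), as differences of log2 changes. These genes fell in Be(2)-C and, other than HIST1H2BI, rose in IMR5-75. For 3 abundant members the difference did not pass: HIST1H3B differed by −0.21 (95% interval −0.84 to 0.42), HIST2H2BF by −0.06 (−0.75 to 0.63) and HIST1H4C by −0.40 (−0.86 to 0.06). With both drugs 18 members differed, all higher in IMR5-75 (6.71% of all genes), 10 of them above the 3-count limit and 8 at or below it, whose direction is again a description, and none was lower by edgeR (4.35% of all genes; 2 at an unadjusted p under 0.05, 0 by DESeq2). With EPZ-6438 HIST1H2AB (0.86, above the limit) and HIST1H3A (at 0 in IMR5-75 DMSO, a description) differed, both higher in IMR5-75 (0.57% of all genes), and none was lower by edgeR (0.62% of all genes), with 34 higher and 0 lower at an unadjusted p under 0.05 and 5 and 0 by DESeq2. Without 1 library these 2 calls became 0 to 8.

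**Figure D5:**
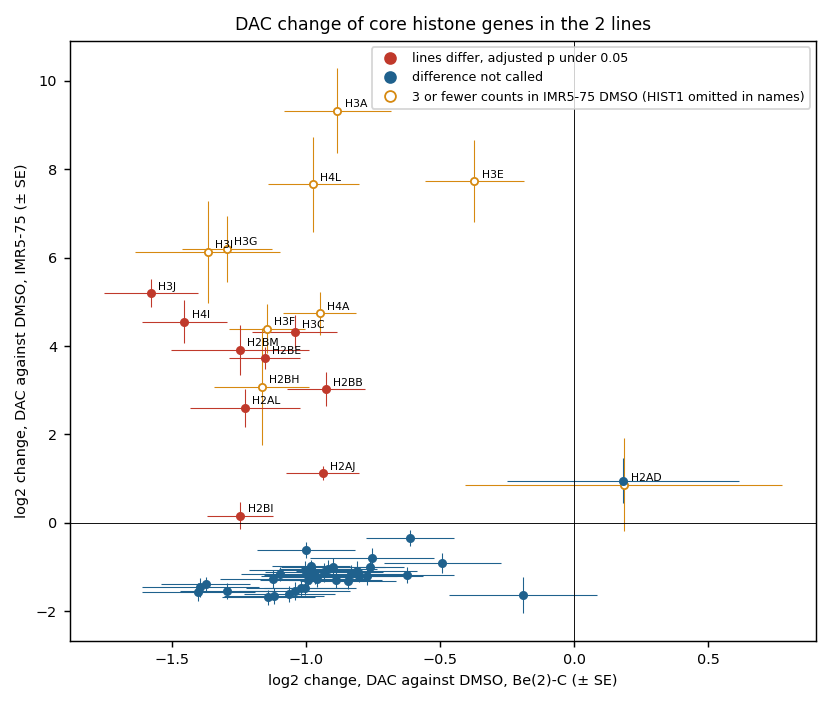
Log2 change with DAC of each tested core histone gene in Be(2)-C (horizontal) and in IMR5-75 (vertical), with SE bars, leaving out the 4 tested members near 0 in both untreated lines. Most members lie below 0 on both axes, and a group including HIST1H3J, HIST1H4I and HIST1H3C lies below 0 in Be(2)-C and above 0 in IMR5-75.

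Genes that work with the core histones were read in lists made from general knowledge. Of 44 genes of DNA replication and nucleotide supply, 25 fell with DAC, 40 with EPZ-6438 and 43 with both in Be(2)-C, and 44, 4 and 44 in IMR5-75. Over all genes tested the shares that fell were 2.97%, 4.85% and 10.4% in Be(2)-C and 13.8%, 0.344% and 20.4% in IMR5-75, which also stand beside the lists that follow. None rose by edgeR in the 6 comparisons, with 0 higher at an unadjusted p under 0.05 and 0 by DESeq2. Their medians were −0.43, −0.78 and −1.02 in Be(2)-C and −0.69, −0.24 and −1.02 in IMR5-75. The 25 became 8 to 11 when any 1 of the Be(2)-C DMSO or DAC libraries was left out, and the 4 became 0 to 2 without any 1 of the IMR5-75 DMSO or EPZ-6438 libraries. PCNA, the replication clamp, changed by −0.68, −0.96 and −1.37 in Be(2)-C. UHRF1, which brings DNMT1 to replicated DNA, changed by −0.49 with EPZ-6438 and −1.27 with both drugs in IMR5-75. What part S-phase content had in the fall of the histone genes was not tested.

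Of 22 histone chaperones and deposition factors tested, 5, 11 and 15 fell with DAC, EPZ-6438 and both in Be(2)-C (2.97%, 4.85% and 10.4% of all genes), and 15, 1 and 18 in IMR5-75 (13.8%, 0.344% and 20.4%). The chromatin remodeller ATRX rose with both drugs in Be(2)-C (0.42). The 5 became 2 or 3 without any 1 library of the contrast. CHAF1B, a subunit of the chromatin assembly factor that places new H3 and H4 behind the fork, had 41.5 and 41.7 CPM in Be(2)-C DMSO, 27.5 and 23.9 with DAC, 18.2 and 16.9 with EPZ-6438 and 13.3 and 13.9 with both (−0.69, −1.25 and −1.61). Of 24 genes of histone mRNA 3′ end processing and decay, 2, 4 and 9 fell in Be(2)-C and 8, 0 and 13 in IMR5-75 by edgeR (for the 0, 3 were lower at an unadjusted p under 0.05 and 0 by DESeq2), and the uridyltransferase gene ZCCHC11 rose with DAC in Be(2)-C (0.46). Without 1 library these counts fell to 0 or 1 (Be(2)-C DAC, any library), 2 (Be(2)-C EPZ-6438, without EPZ-6438 library 1), 3 to 6 (Be(2)-C both drugs) and 4 (IMR5-75 DAC, without DMSO library 1). SLBP had 146 and 156 CPM in Be(2)-C DMSO, 116 and 120 with DAC, 77.8 and 96.2 with EPZ-6438 and 82.7 and 70.6 with both. It fell with EPZ-6438 (−0.80) and both drugs (−0.98) but did not pass with DAC (−0.35, adjusted p = 0.0809), and in IMR5-75 it fell with DAC (−0.57, adjusted p = 8.98e-04) and both (−0.83).

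Of 14 genes of histone transcription and S-phase control, 6, 6 and 7 fell in Be(2)-C and 10, 1 and 12 in IMR5-75. None rose by edgeR, with 0 higher at an unadjusted p under 0.05 and 0 by DESeq2. Without 1 library the 6 with DAC in Be(2)-C became 3 or 4, and the 10 with DAC in IMR5-75 became 6 without DAC library 1 or DMSO library 1. The single calls with EPZ-6438 in IMR5-75, here and among the chaperones, were lost without DMSO library 2 or either EPZ-6438 library. NPAT, which recruits the transcription machinery to histone clusters, had 74.0 and 76.8 CPM in Be(2)-C DMSO and 77.4 and 71.2 with DAC (−0.02, not called), and 37.6 and 34.6 CPM in IMR5-75 DMSO and 29.3 and 33.0 with DAC. E2F1, an activator of S-phase genes, changed by −1.12 with EPZ-6438 and −1.64 with both drugs in Be(2)-C, and by −1.36 with both drugs in IMR5-75. Of 9 replication-independent core histone variants tested, 4, 4 and 5 fell in Be(2)-C and 6, 0 and 6 in IMR5-75 by edgeR (for the 0, 1 was lower at an unadjusted p under 0.05 and 0 by DESeq2). The 4 with DAC became 1 or 2 without any 1 library. H2AFZ, an H2A variant made outside S phase too, had 851 and 768 CPM in Be(2)-C DMSO and 491 and 563 with DAC (−0.62), and 762 and 816 CPM in IMR5-75 DMSO and 477 and 495 with DAC (−0.70). H2AFJ, another H2A variant, rose with DAC (3.90) and both drugs (4.16) in IMR5-75, from 0.29 and 0 CPM in DMSO to 2.90 and 2.03 CPM with DAC, while it stood at 18.4 and 19.5 CPM in Be(2)-C DMSO.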

How the data were processed

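The deposited table holds raw counts per gene symbol, which the authors made for each library from 50-base single-end reads of strand-specific libraries of ribosome-depleted total RNA, per the labels' protocols. The submitters' processing notes name the aligner TopHat2 (2.0.5), the counter HTSeq (0.5.3p9), DESeq2 (version not stated) and genome build hg19. Gene annotation, strand setting and handling of reads with several matches were not given in the sources used here. No column of per-sample values was left unmapped, and no 2 columns were identical.

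All 16 libraries were fitted together with edgeR 4.0.16 (limma 3.58.1, R 4.3.3) as 8 group means, after filterByExpr (15967 of 23459 genes kept, 1191 at 0 everywhere), TMM scaling and quasi-likelihood tests, leaving 8 residual degrees of freedom. Benjamini-Hochberg adjustment ran over all genes tested. CPM use TMM-scaled totals. Intervals of log2 changes are the value ± its SE times the 95% quantile of t with these degrees of freedom. Ratios of genes with 1 to 3 counts have exact binomial 95% intervals, and genes at 0 are set at 3 counts over the group. The fit was tested on simulated data.

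The members and gene lists were chosen with earlier results of these data known. Named were the 3 lowest and 3 highest called changes per treatment (mean log2 CPM at least 1, libraries not overlapping), the most abundant member of each type, the members low in IMR5-75 DMSO, members that rose, members outside HIST1 and HIST2, testis-type members, the 3 most significant in other comparisons and 2 genes per list and treatment. Members at runs or limits, and for contrast, were added after their values were seen. Alternatives were DESeq2 1.42.0, its size factors, no count filter, 1 line fitted alone, a replicate block and leaving out each library. Promoters came from the RefSeq table (GRCh38.p14) and gene order from GENCODE v29; neither is the files' build, so no hg19 coordinates are given.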

Additional observations from a re-analysis of the deposited data

Results flagged for a closer look

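Part of the core histone genes changed differently in the 2 lines, by edgeR's test of the difference between the changes (adjusted p under 0.05). Of 59 members tested, the difference passed for 16 with DAC, 2 with EPZ-6438 and 18 with both drugs, each with a higher value in IMR5-75. Over all genes tested 5.13%, 0.57% and 6.71% were higher. The number with EPZ-6438 moved with the processing, as given below. Of the members that passed, 7, 1 and 8 had 3 or fewer counts over the IMR5-75 DMSO libraries, which enter the contrast, so their direction is a description. As differences of log2 changes (IMR5-75 minus Be(2)-C) with DAC, the members above 3 counts in IMR5-75 DMSO were HIST1H2AJ 2.06, HIST1H2AL 3.83, HIST1H2BB 3.95, HIST1H2BE 4.88, HIST1H2BI 1.41, HIST1H2BM 5.16, HIST1H3C 5.37, HIST1H3J 6.77 and HIST1H4I 5.999. With EPZ-6438 the member was HIST1H2AB (0.86). With both drugs they were HIST1H2AJ 1.55, HIST1H2AL 4.83, HIST1H2BB 4.89, HIST1H2BE 5.03, HIST1H2BI 2.89, HIST1H2BM 4.29, HIST1H3C 6.37, HIST1H3J 6.62, HIST1H4I 5.77 and HIST4H4 0.78.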

How the results depend on the processing

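The numbers of members called against DMSO under DAC and both drugs in IMR5-75 and under EPZ-6438 and both drugs in Be(2)-C stayed within 1.5 times the reported number under every alternative run. Other numbers of calls moved, and the cause was not tested. Without the count filter they were 38 for both drugs against DAC and 33 for both against EPZ-6438 in Be(2)-C, 13 for the Be(2)-C departure from additivity, 11 for EPZ-6438 and 10 for both drugs against DAC in IMR5-75, 3 for the IMR5-75 departure, and 25 for the EPZ-6438 difference between lines. With 1 line fitted alone they were 30 for both drugs against DAC in Be(2)-C and 0 for EPZ-6438 in IMR5-75. DESeq2 called 2 for EPZ-6438 in IMR5-75 and 5 for its difference between lines. Same-numbered libraries did not deviate alike throughout (correlations of deviations −0.25 to 0.136 over 12 pairs of groups within a line). These values cannot exclude a pairing under other numbers or a shared batch. With the replicate block the count was 0 for EPZ-6438 in IMR5-75 and 0 for its difference between lines. Crossed numbers, an alternative chosen after seeing the data, gave 41 for both drugs against EPZ-6438 in Be(2)-C and 33 for both against DAC in IMR5-75. Without 1 library the calls ranged from 34 to 48 for DAC in Be(2)-C, 1 to 10 for both drugs against DAC and 5 to 17 against EPZ-6438, 0 to 7 for the Be(2)-C departure from additivity, 0 to 3 for EPZ-6438 in IMR5-75, 0 to 3 for both drugs against DAC in IMR5-75 and 0 to 8 for the EPZ-6438 difference between lines.

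Median log2 changes without 1 library ranged, for members low in IMR5-75 only, from −1.12 to −0.84 (Be(2)-C DAC) and −1.71 to −1.33 (Be(2)-C both drugs), for H2A from −1.02 to −0.94 (Be(2)-C EPZ-6438) and −0.59 to 0.00 (IMR5-75 EPZ-6438), for HIST3 and HIST4 from −0.80 to −0.51 (Be(2)-C EPZ-6438), and for H3 in IMR5-75 from 4.42 to 6.27 (DAC), 0.068 to 1.51 (EPZ-6438) and 4.45 to 6.81 (both drugs). All these medians take in members at 3 or fewer counts in IMR5-75 DMSO, whose changes in IMR5-75 are a description. The summed H3 level in IMR5-75 was 0.377 of DMSO with DAC, 0.756 with EPZ-6438 and 0.327 with both drugs. In IMR5-75 with EPZ-6438 the medians ranged from −0.38 to 0.049 for H4 and −0.44 to 0.023 for HIST1. The changes of HIST2H2AC ranged from −0.41 to 0.17 and of HIST1H4C from −0.25 to 0.059 there, and these 4 values turned positive without DMSO library 2. Of the named single-gene changes, leaving out 1 library ended the call in 35 cases, the block in 3 and fitting 1 line alone in 2, all without a change of direction. With TMM-scaled totals the shares of Be(2)-C DMSO counts were 1.47% for HIST1, 0.174% for HIST2, 0.418% for H2A and 0.412% for H3. Totals of 9539557 to 14032155 counts limit what can be said of members with few counts in a library.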
